A study of Homo sapiens with 3 samples.

Results

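The genes described here are the C/EBP transcription factors CEBPA, CEBPB, CEBPD and CEBPG, the nuclear receptors PPARA, PPARD, PPARG and RXRA, and ANGPTL4, a secreted protein encoded by a PPAR target gene. They were taken as all probe sets whose gene symbol in the platform annotation is exactly one of these names, which gave 9 genes of 19775 and 24 probe sets of 54613. RNA came from IMR-90 ER:Ras cells, a derivative of IMR-90 human lung fibroblasts that carries a Ras protein switched on by 4-hydroxytamoxifen (4-OHT). The oncogene-induced senescence (OIS) culture had received 100 nM 4-OHT for 6 days, the replicative senescence (RS) culture had been passaged for 10 weeks, and the growing culture had no treatment. All 3 cultures were of the ER:Ras line, no vehicle is named for the growing culture, and each condition was measured on 1 array.

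C/EBP proteins are basic leucine zipper factors that bind DNA as dimers with each other or with related factors. C/EBP beta and delta are known as regulators of inflammatory and acute phase genes and as early factors of fat cell formation, in which they act ahead of C/EBP alpha and PPAR gamma. PPARs are receptors for fatty acids and their derivatives and bind DNA as heterodimers with RXR. C/EBP beta is also known from fibroblasts as a factor of Ras-induced senescence and its secreted cytokines.

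With 1 array per condition there was no replicate and no test, and the precision of every value is limited by the number of arrays. A gene was called different when its signals differed 2-fold or more. Signals below 45.5, the median of all values on the 3 arrays, were raised to this floor before ratios were taken, and a fold is marked "at least" where its dimmer signal was at or below that floor. Each gene was represented by its brightest probe set, and the 13466 genes that exceeded the floor somewhere are called measured. The arrays were alike in scale, with 49.8% to 50.3% of probe sets above the floor. For genes with a second probe set, the log2 ratio of a single probe set had a spread (SD, 6759 genes) of 0.36 in the ratio of OIS to growing cells, of 0.33 in that of RS to growing cells and of 0.37 in that of OIS to RS. This spread covers probe error and not differences between cultures. In RNA of a whole culture, fewer cells that express a gene and less RNA per cell cannot be told apart.

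All 12 fibroblast markers were above the floor on all 3 arrays, with a summed signal of 215285 in OIS, 225277 in RS and 215702 in growing cells. Within that sum DCN, which encodes the matrix proteoglycan decorin, read 7745.9 in OIS and 22971.2 in RS, against 20075.4 in growing cells, and was 2.59-fold lower in OIS than in growing cells and 2.97-fold lower in OIS than in RS. LUM, which encodes lumican, was 2.22-fold lower in OIS than in RS. Of 13 adipocyte markers, ADIPOQ, LEP, PLIN1, PLIN4, LPL, RETN, GPD1 and LIPE were below the floor throughout, and the summed signal was 782 in OIS, 1417 in RS and 737 in growing cells. Of the RS sum 548.6 came from ADIRF, which read 20.2 in OIS and 22.3 in growing cells. PNPLA2, CIDEC and CIDEA were above the floor on all 3 arrays, and FABP4 only in growing cells, at 64.6. PNPLA2 made up most of the sum in OIS and in growing cells, at 486.2 in OIS and 460.3 in RS, against 390.2 in growing cells. The epithelial sum of 8 markers was 3268 in OIS, 6579 in RS and 3441 in growing cells, most of it from KRT18, and KRT18 and KRT8 were 2.01-fold and 2.20-fold higher in RS than in growing cells, while EPCAM was 3.20-fold lower in OIS than in growing cells. The blood sum of 6 was 422, 370 and 372 in that order, and the endothelial sum of 6 was 1583, 2193 and 1387. Most of the endothelial sum came from TEK, at 1274.8 in OIS and 2033.1 in RS, against 1251.3 in growing cells. The other 2 measured endothelial markers were higher in OIS, PECAM1 with 135.0 in OIS and 52.7 in RS, against 49.0 in growing cells, and VWF with 130.5 in OIS and 80.9 in RS, against 59.7 in growing cells. They were 2.76-fold and 2.19-fold higher in OIS than in growing cells, so that 2 of 3 measured (66.7%) passed 2-fold, where 4.92% of all measured genes were higher. The proliferation marker MKI67 had a signal of 143.1 in OIS and 193.6 in RS, against 814.8 in growing cells. The lamin gene LMNB1 was at 450.2 in OIS and 410.5 in RS, against 4162.8 in growing cells. HRAS read 11748.1 in OIS and 2552.8 in RS, against 7695.7 in growing cells, so it was 3.01-fold lower in RS. CDKN2A, the locus of p16, read 1040.0 in OIS and 1114.8 in RS, against 432.5 in growing cells. The cytokine gene IL6 read 14925.4 in OIS and 1193.0 in RS, against 752.6 in growing cells. The part of other cell types in the results below was not tested.

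The promoters of ANGPTL4 and PPARG, which passed 2-fold between states, and of CEBPB, which was highest in OIS, are shown as a description. They run from 250 bases before to 50 bases after a start site listed by RefSeq in GRCh38.p14, so that the start is base 251. Capitals mark every match, on either strand, to any of 5 motifs. TTGCNNAA is a form of the C/EBP element. AGGTCA is the element of a single nuclear receptor, and its direct repeat with 1 base between the copies is the element of PPAR with RXR. The E-box is CACGTG. The TATA box was searched as TATAAA. The ANGPTL4 stretch is on chromosome 19 (chr19:8363905-8364204, plus strand). The CEBPB stretch is the second of 2 starts of that gene on chromosome 20 (chr20:50190580-50190879, plus strand), and the PPARG stretch is the last of 6 starts on chromosome 3 (chr3:12351167-12351466, plus strand).
ANGPTL4: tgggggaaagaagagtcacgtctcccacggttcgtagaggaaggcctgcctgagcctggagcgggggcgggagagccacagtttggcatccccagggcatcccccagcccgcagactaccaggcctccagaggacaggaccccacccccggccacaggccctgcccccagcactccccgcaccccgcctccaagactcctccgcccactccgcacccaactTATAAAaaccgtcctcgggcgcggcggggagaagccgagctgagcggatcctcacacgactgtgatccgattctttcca
CEBPB: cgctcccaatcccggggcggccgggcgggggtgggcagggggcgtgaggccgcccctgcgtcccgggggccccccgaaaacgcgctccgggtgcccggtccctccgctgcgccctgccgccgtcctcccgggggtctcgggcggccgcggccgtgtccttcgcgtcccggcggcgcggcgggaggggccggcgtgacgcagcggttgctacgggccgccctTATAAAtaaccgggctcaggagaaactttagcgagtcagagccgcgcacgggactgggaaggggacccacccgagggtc
PPARG: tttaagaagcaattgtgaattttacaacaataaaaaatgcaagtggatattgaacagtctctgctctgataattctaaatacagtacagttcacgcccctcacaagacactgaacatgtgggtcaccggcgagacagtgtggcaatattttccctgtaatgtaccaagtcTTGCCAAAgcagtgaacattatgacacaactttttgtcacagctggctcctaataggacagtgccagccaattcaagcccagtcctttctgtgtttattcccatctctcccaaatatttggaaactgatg

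The stretches of ANGPTL4 and CEBPB each held 1 match, a TATAAA whose first base lies 29 bases before the start. In the PPARG stretch the only match was TTGCCAAA, a C/EBP element 80 bases before the start. Among 35116 RefSeq promoters of the same length, TATAAA was found in 11.5%, TTGCNNAA in 10.5%, AGGTCA in 13.8%, CACGTG in 7.26% and the full direct repeat in 0.0228%. The base composition also differed, with 66.3% G and C in the ANGPTL4 stretch, 76.7% in that of CEBPB and 41.0% in that of PPARG, against a median of 58.7%. The PPARG stretch shown had the lowest share of that gene's starts, the others having 43.3% to 56.7%. Of the other start sites, that of CEBPA had TATAAA 30 bases before it, and one of RXRA had the C/EBP element TTTTGCAA from base 21 of the transcript. PPARG had AGGTCA at 3 further starts, of which 2 lie in overlapping stretches that also hold TATAAA on the minus strand. No start of CEBPG, PPARA or PPARD held any of the 5 motifs, and neither did the remaining starts of CEBPB, PPARG and RXRA. The stretches shown for CEBPB and PPARG are thus ones with a match. In all 8 of the 9 genes had a promoter in the table, and CEBPD was not among them. A match describes letters and not a bound site, and the arrays do not show which start a culture used. Sequence outside the promoters was not searched, so the lack of a match does not tell whether a factor acts on the gene.

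Across the 9 genes, ANGPTL4 was higher in both senescent cultures, PPARG was far lower in OIS, and CEBPD was lower in RS. CEBPB was highest in OIS without passing 2-fold, and PPARA, PPARD and RXRA stayed within 2-fold in every comparison. In OIS against growing cells 1 of 8 measured genes was 2-fold or more higher, where 4.92% of all measured genes were, and 1 was 2-fold or more lower, where 6.63% were. In RS against growing cells 1 was higher (background 3.72%) and 1 lower (background 5.58%). In OIS against RS 1 was higher (background 5.48%) and 1 lower (background 5.27%). Both ratios to growing cells use the same growing array, so their values are given side by side and not as independent evidence. With 8 genes, 1 call in a direction is a share of the order of the background, and the counts as such set the group apart from other genes in no comparison. The median log2 ratio over the 8 genes was 0.02 in OIS and -0.23 in RS over growing cells, and 0.45 in OIS over RS, where all measured genes had medians of 0.00.

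**Figure D1:**
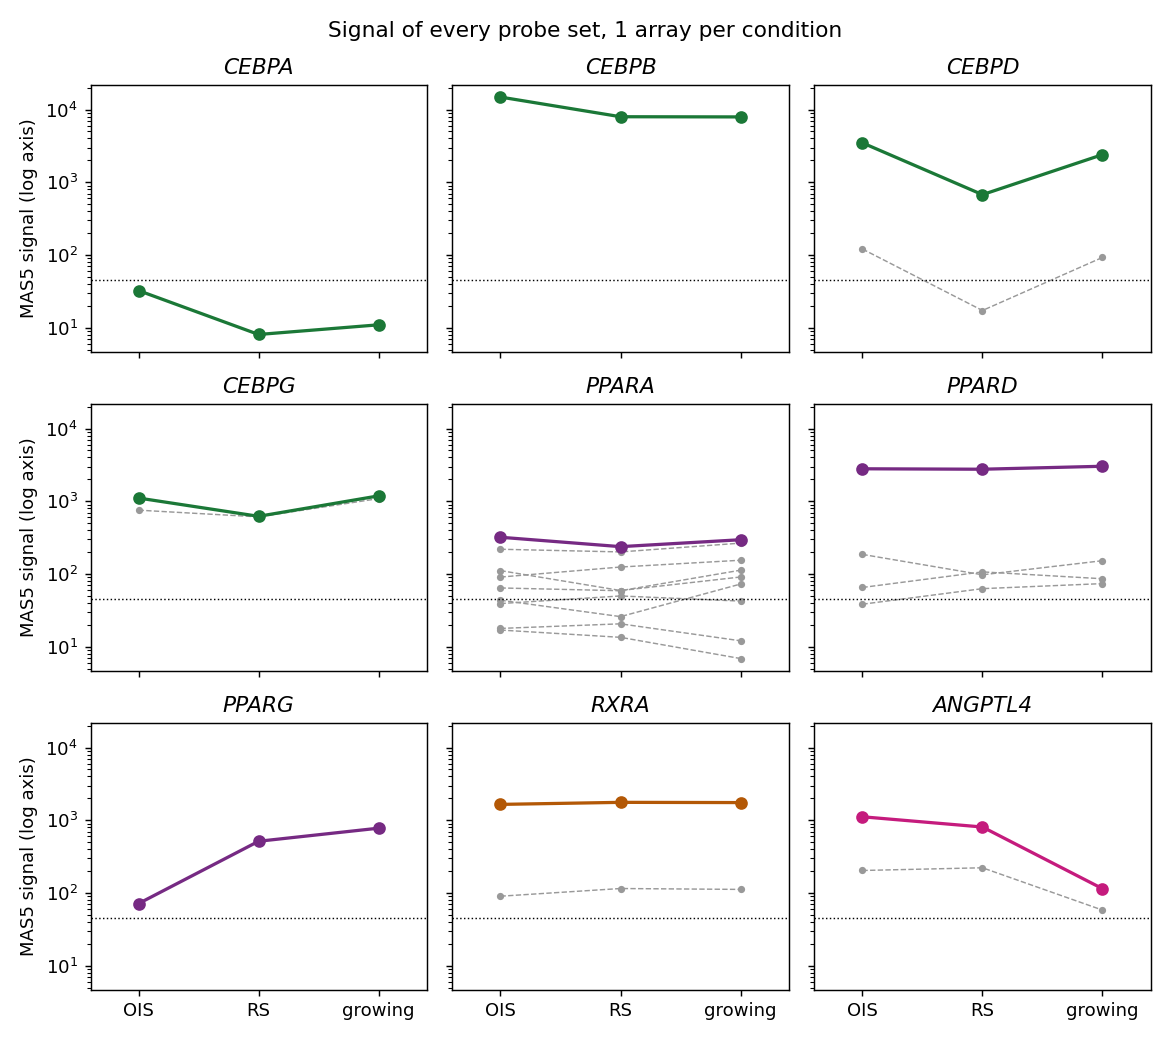
MAS5 signal (log axis) of every probe set of the 9 genes on the OIS, RS and growing arrays, 1 array each. The thick coloured line is the probe set used for the gene, thin grey lines are its other probe sets and the dotted line is the floor of 45.5. PPARG reads 71.7 in OIS, ANGPTL4 stands above its growing signal of 114.8 in both senescent cultures, and CEBPA lies below the floor on all 3 arrays.

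CEBPB, which encodes C/EBP beta and has 1 probe set, had a signal of 14838.2 in OIS and 7961.1 in RS, against 7916.0 in growing cells. The OIS culture stood alone as the highest, and RS and growing cells differed by a log2 ratio of 0.01, within the spread of a single probe set. OIS was 1.87-fold higher than growing cells and 1.86-fold higher than RS, log2 ratios of 0.91 and 0.90 that exceeded the probe set spread but missed 2-fold. Among 11619 genes that exceeded the floor in both cultures, its ratio of OIS over growing cells had rank 650 from the highest.

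CEBPD, which encodes C/EBP delta, a factor induced early by inflammatory signals, had a signal of 3481.9 in OIS and 676.6 in RS, against 2399.8 in growing cells. The RS culture was the low one. CEBPD was 3.55-fold lower in RS than in growing cells and 5.15-fold higher in OIS than in RS, while OIS was 1.45-fold higher than growing cells. The probe set behind these values is of a type that can hybridize to several transcripts. The second, which is not of that type, was dimmer, with signals of 121.0 in OIS and 17.3 in RS, against 92.8 in growing cells. It gave the same order of the 3 cultures and bounds of at least 2.04-fold lower in RS than in growing cells and at least 2.66-fold higher in OIS than in RS. The ratio of OIS over RS ranked 85 from the highest of 11549 genes that exceeded the floor in both cultures, and that of RS over growing cells ranked 203 from the lowest of 11616.

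CEBPG encodes C/EBP gamma, a member without an activation domain of its own that pairs with other bZIP factors, among them ATF4. Its signal was 1108.0 in OIS and 621.5 in RS, against 1187.4 in growing cells, and a second probe set read 755.1 in OIS and 610.4 in RS, against 1089.2 in growing cells. Both probe sets were lowest in RS, at log2 ratios of -0.93 and -0.84 over growing cells, just short of 2-fold. They differed for OIS over growing cells, at -0.10 and -0.53. CEBPA, which encodes C/EBP alpha, a factor of mature fat and liver cells, had signals of 32.5 in OIS and 8.1 in RS, against 11.0 in growing cells. All 3 lie below the floor, so CEBPA counts as not measured and has no fold.

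**Figure D2:**
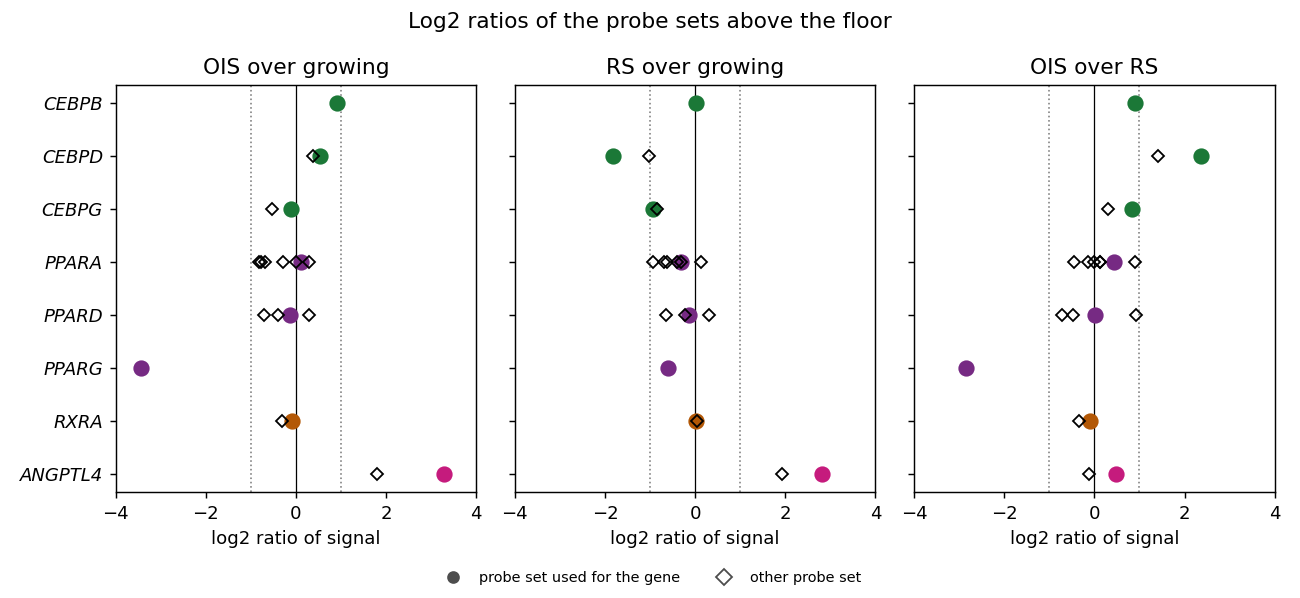
Log2 ratios of the 21 probe sets above the floor on at least 1 array, in a panel for each comparison. Filled circles are the probe sets used for a gene, open diamonds are other probe sets, and dotted lines mark 2-fold. A probe set at or below the floor on both arrays of a panel is drawn at 0. The 2 probe sets of ANGPTL4 lie on the same side in the first 2 panels, and PPARG rests on 1 probe set.

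PPARG encodes PPAR gamma, the receptor that directs fat cell formation and is the target of thiazolidinedione drugs. It had a signal of 71.7 in OIS and 514.8 in RS, against 779.1 in growing cells. The OIS culture was the low one, 10.9-fold below growing cells and 7.18-fold below RS. RS was 1.51-fold lower than growing cells, a log2 ratio of -0.60 that exceeded the probe set spread of 0.33 but missed 2-fold. That ratio ranked 1525 from the lowest of 11616 genes above the floor in both RS and growing cells. Among 11619 genes that exceeded the floor in both cultures, the ratio of OIS over growing cells ranked 12 from the lowest, and among 11549 that of OIS over RS ranked 31 from the lowest. PPARG has a single probe set, of a type that can hybridize to several transcripts, so no second probe set repeats this difference. The OIS signal is also near the floor of 45.5.

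PPARA encodes PPAR alpha, which drives fatty acid oxidation in liver and muscle. Its brightest probe set read 320.4 in OIS and 238.0 in RS, against 296.2 in growing cells, with ratios within 1.35-fold in all 3 comparisons. Of its 9 probe sets 7 exceeded the floor in some culture and 5 in all 3. Those 5 ran from -0.81 to 0.29 in log2 ratio for OIS over growing cells and thus had no common direction. For RS over growing cells they ran from -0.94 to -0.31, so all 5 were lower in RS, none by 2-fold.

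PPARD encodes PPAR delta, the form found in most tissues. Its brightest probe set read 2796.6 in OIS and 2758.0 in RS, against 3029.3 in growing cells. The 3 cultures lay within 1.10-fold of each other there. The other 3 probe sets were far dimmer and did not share a direction, from -0.70 to 0.29 for OIS over growing cells and from -0.64 to 0.31 for RS over growing cells.

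RXRA encodes retinoid X receptor alpha, the common partner of the PPARs and of several other nuclear receptors. It read 1653.2 in OIS and 1763.7 in RS, against 1751.2 in growing cells. A second probe set read 90.5 in OIS and 115.4 in RS, against 112.2 in growing cells. Every ratio of both probe sets was within 1.28-fold and within the spread of a single probe set.

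ANGPTL4 encodes angiopoietin-like 4, a secreted inhibitor of lipoprotein lipase whose gene responds to PPARs, to hypoxia and to glucocorticoids. Its signal was 1117.3 in OIS and 808.1 in RS, against 114.8 in growing cells. Both senescent cultures stood above the growing one, by 9.73-fold in OIS and 7.04-fold in RS, and they differed from each other by 1.38-fold. The second probe set read 204.2 in OIS and 222.5 in RS, against 58.3 in growing cells, or 3.50-fold and 3.82-fold higher. It thus gave the same direction with smaller folds, and it placed RS slightly above OIS where the first placed OIS above RS. Both probe sets are of the type that can hybridize to several transcripts.

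**Figure D3:**
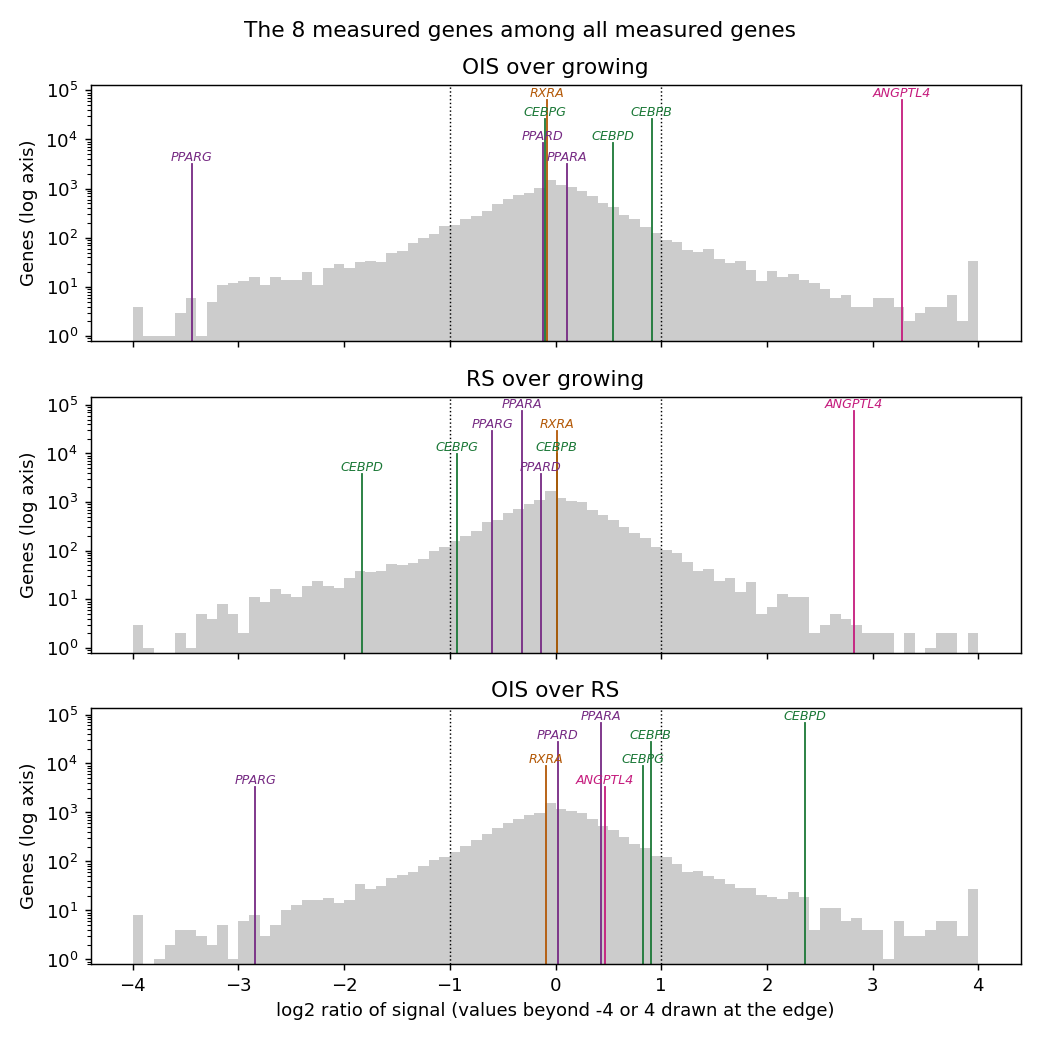
Histograms (log axis) of the log2 ratios of all 13466 measured genes in the 3 comparisons, with the 8 measured genes as coloured lines and 2-fold as dotted lines. ANGPTL4 lies in the upper tail of both ratios to growing cells, PPARG in the lower tail of OIS over growing cells and OIS over RS, and CEBPD in the lower tail of RS over growing cells.

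The ratio of ANGPTL4 in RS over growing cells ranked 12 from the highest of 11616 genes that exceeded the floor in both cultures, and in OIS over growing cells 44 from the highest of 11619. PPARG and ANGPTL4 thus stood far from the middle of all genes in OIS in opposite directions, at log2 ratios of -3.44 and 3.28. In RS they stood at -0.60 and 2.82. For the other genes the log2 ratio in RS over growing cells ranged from -1.83 for CEBPD to 0.01 for CEBPB and RXRA.

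Genes with a like pattern were taken as the 3 nearest in the pair of log2 ratios to growing cells, among 11294 other genes above the floor on all 3 arrays. This measure rests on 3 arrays and is a description. Nearest to ANGPTL4 were SYTL5 at a distance of 0.26 log2 units, DKK2, a secreted WNT inhibitor, at 0.58, and FLT1, a VEGF receptor, at 0.58. Nearest to PPARG were RELN, the secreted protein reelin, at 0.26, LINC01279 at 0.38 and MYBL1, a MYB family factor, at 0.89. Nearest to CEBPD were CYP1B1, a cytochrome P450 enzyme, at 0.03, SLC7A2, a transporter of cationic amino acids, at 0.19, and HRAS at 0.25. Nearest to CEBPB were ARHGAP26 and LNROP at 0.02 and TNKS1BP1 at 0.03. CEBPB lay in a dense part of the distribution and PPARG in a sparse one, as the distances show.

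Lists of genes around these factors were described by their counts and medians, without the 9 genes themselves. The lists were chosen with earlier results of these data known, so their shares are a description and not a test. Whether the factors act on the listed genes in these cultures was not tested. VLDLR stands in 3 of the 9 lists and TRIB3 in 2. Genes of cytokines and acute phase proteins linked to C/EBP factors had the largest median of the 9 lists in OIS. LCN2, ORM1, HP, CP and CHI3L1 were below the floor on all 3 arrays, and SAA1 and SAA2 were not among the genes used. The measured genes were thus mostly those of cytokines and chemokines, and the list says little about acute phase genes. Of 16 measured, 14 (87.5%) were 2-fold or more higher in OIS than in growing cells and none lower, where 4.92% of all measured genes were higher, and the median of their log2 ratios was 3.30. In RS against growing cells 2 were higher (12.5%, against 3.72% of all), 3 lower (18.8%, against 5.58%) and the median was 0.00. PTGS2, which encodes cyclooxygenase-2, read 19178.0 in OIS and 149.9 in RS, against 96.5 in growing cells. The chemokine gene CXCL2 read 7577.2 in OIS and 17.8 in RS, against 22.8 in growing cells, at least 167-fold higher in OIS. IL1B, which encodes interleukin-1 beta, read 20515.4 in OIS and 57.6 in RS, against 269.4 in growing cells. The 2 higher in RS were C3, the central complement component, at 5.12-fold and CXCL8 at 2.35-fold. Lower in RS were TNFAIP6, a hyaluronan-binding protein, at 8.75-fold, IL1B at 4.68-fold and the collagenase MMP1 at 3.96-fold. In OIS against RS 13 of 16 were higher (81.2%, against 5.48% of all) and none lower. CFB, a complement factor, and MMP1 had the smallest log2 ratios of OIS over growing cells, 0.35 and 0.91.

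**Figure D4:**
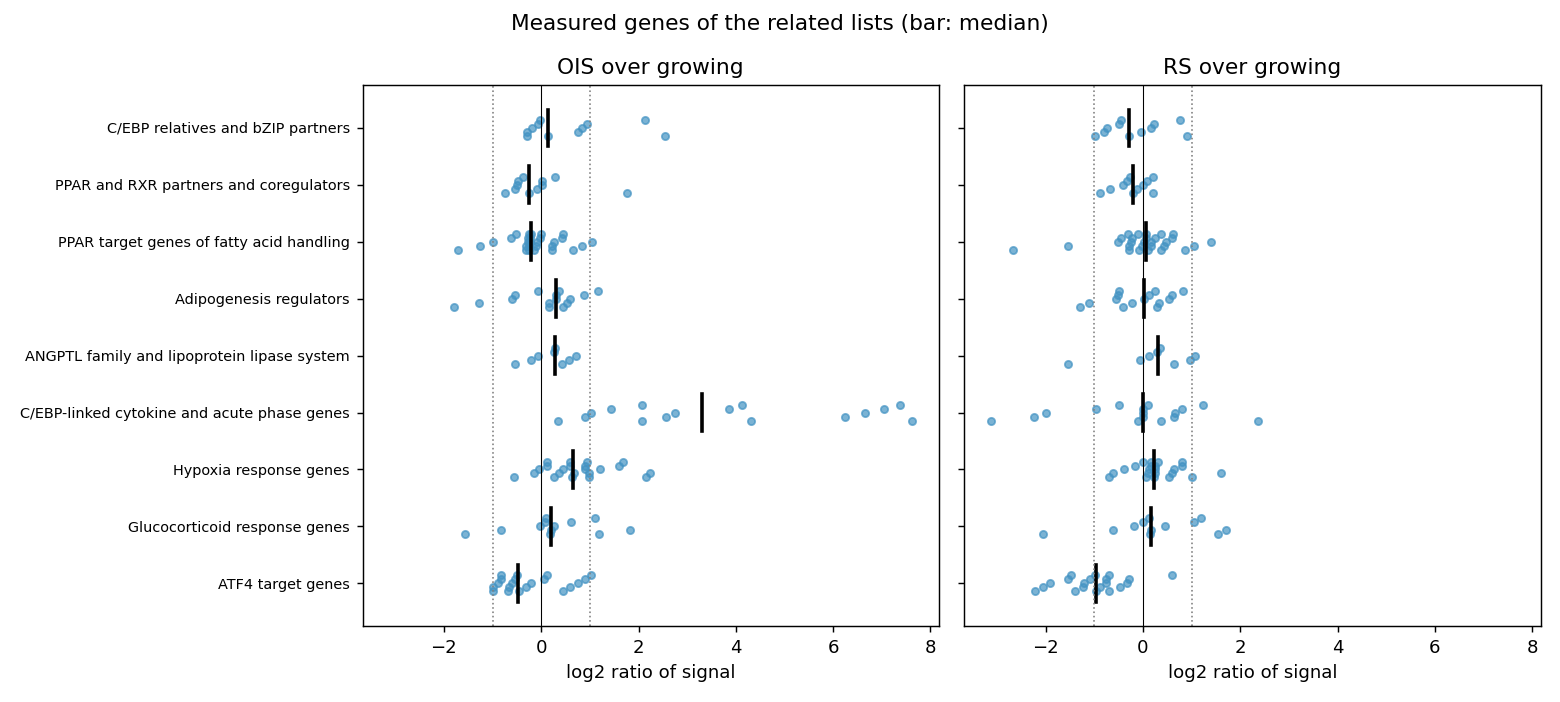
Log2 ratios of the measured genes of 9 related lists for OIS over growing cells and RS over growing cells. Each dot is a gene, the black bar is the list's median and dotted lines mark 2-fold. The cytokine and acute phase list has a median of 3.30 in OIS and 0.00 in RS, and the ATF4 list has the lowest median of the 9 in RS, at -0.98.

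Among relatives and partners of the C/EBP proteins, 2 of 11 measured were 2-fold or more higher in OIS than in growing cells (18.2%, where 4.92% of all measured genes were) and none lower (6.63% of all). TRIB1, a pseudokinase that promotes the breakdown of C/EBP alpha, read 10680.5 in OIS and 3414.6 in RS, against 1823.6 in growing cells. ATF3, a stress-induced bZIP factor, read 2482.1 in OIS and 665.9 in RS, against 566.2 in growing cells. In RS against growing cells none of the 11 passed 2-fold, with TRIB1 1.87-fold and TRIB2 1.69-fold higher, TRIB3 1.99-fold and BATF3 1.75-fold lower, and the list's median was -0.28. In OIS against RS 4 were higher (36.4%, against 5.48% of all measured genes) and none lower, ATF3 at 3.73-fold, TRIB3 at 3.37-fold, DDIT3 at 3.21-fold and TRIB1 at 3.13-fold. DDIT3 encodes CHOP, which forms dimers with C/EBP proteins. It read 1700.8 in OIS and 529.3 in RS, against 877.6 in growing cells, and was named after its values were seen.

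Genes activated by ATF4, a dimer partner of C/EBP gamma, had a median below that of all genes in RS. Of 20 measured, 9 (45.0%) were 2-fold or more lower in RS than in growing cells and none higher, where 5.58% of all measured genes were lower, and the median of their log2 ratios was -0.98, where that of all measured genes was 0.00. DDIT4, an inhibitor of mTOR signaling, read 4343.2 in OIS and 689.7 in RS, against 3181.9 in growing cells. ASNS, which encodes asparagine synthetase, read 4444.2 in OIS and 1628.2 in RS, against 6732.5 in growing cells. In OIS against growing cells 1 was higher (5.0%, against 4.92% of all) and 1 lower (5.0%, against 6.63%), CHAC1, a glutathione-degrading enzyme, at 2.04-fold higher and the cystine transporter gene SLC7A11 lower at 4332.1 in OIS and 3718.5 in RS, against 8674.3 in growing cells. The median of OIS over growing cells was -0.47. In OIS against RS 8 of 20 were higher (background 5.48%) and none lower, among them CTH, which encodes cystathionine gamma-lyase, at 4.92-fold.

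PPAR target genes of fatty acid handling passed 2-fold about as often as all measured genes. Of 28 measured, 1 was higher (3.57%, against 4.92% of all) and 2 lower (7.14%, against 6.63% of all) in OIS than in growing cells, the median of their log2 ratios being -0.21. Against growing cells, 2 were higher in RS (7.14%, against 3.72% of all) and 2 lower (7.14%, against 5.58% of all), with a median of 0.06. CD36, a fatty acid transporter, read 108.7 in OIS and 139.4 in RS, against 53.0 in growing cells, 2.05-fold and 2.63-fold higher. EHHADH, an enzyme of peroxisomal fatty acid oxidation, read 72.1 in OIS and 232.1 in RS, against 236.3 in growing cells. UCP2, a mitochondrial carrier, was 2.39-fold lower in OIS than in growing cells. FABP5, a fatty acid binding protein, read 1703.8 in OIS and 530.6 in RS, against 3369.8 in growing cells, 6.35-fold lower in RS. FABP3, its muscle form, was 2.07-fold higher and VLDLR, the receptor for very low density lipoprotein, 2.91-fold lower in RS than in growing cells. In OIS against RS 2 were higher (7.14%, against 5.48% of all), FABP5 and VLDLR, and 3 were lower (10.7%, against 5.27%), EHHADH, UCP2 and FABP3.

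Partners and coregulators of the PPARs and RXR were mostly within 2-fold. Of 11 measured, PPARGC1B, which encodes the coactivator PGC-1 beta, was the 1 gene past 2-fold in OIS against growing cells (9.09% higher, against 4.92% of all), and none passed it in RS against growing cells. PPARGC1B read 153.8 in OIS and 23.5 in RS, against 27.1 in growing cells, at least 3.38-fold higher in OIS than in either. NRIP1, a corepressor of nuclear receptors, was 1.67-fold lower in OIS and 1.85-fold lower in RS than in growing cells. The medians were -0.24 in OIS and -0.21 in RS over growing cells.

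Regulators of fat cell formation differed in single members. Of 15 measured, 1 was higher (6.67%, against 4.92% of all measured genes) and 2 lower (13.3%, against 6.63%) in OIS than in growing cells, the median of their log2 ratios being 0.30. None was higher in RS than in growing cells (3.72% of all were) and 2 were lower (13.3%, against 5.58%), with a median of 0.03. BMP4, a ligand that commits precursors to the fat lineage, read 910.0 in OIS and 165.7 in RS, against 407.3 in growing cells. KLF4 and KLF2, Krüppel-like factors that act for and against fat cell formation in mouse cells, were 3.49-fold and 2.43-fold lower in OIS than in growing cells. KLF15, which in mouse cells promotes it, was at least 2.14-fold lower in RS than in growing cells. In OIS against RS 4 were higher (26.7%, against 5.48% of all), BMP4 at 5.49-fold, KLF15 by at least 2.90-fold, TLE3 at 2.42-fold and DLK1 by at least 2.20-fold, and KLF4 and KLF2 were lower (13.3%, against 5.27%) at 5.08-fold and 4.29-fold. DLK1 was named after its values were seen.

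Around ANGPTL4 itself, no other gene of its family was measured, with ANGPTL6, ANGPTL7 and ANGPTL8 below the floor on all 3 arrays. Of 17 genes of this family and of the lipoprotein lipase system on the array, 8 were above the floor. None passed 2-fold in OIS against growing cells. In RS LIPG, which encodes endothelial lipase, was at least 2.08-fold higher and VLDLR 2.91-fold lower than in growing cells. These were 12.5% in each direction, against 3.72% and 5.58% of all. LPL, the enzyme that ANGPTL4 inhibits, read 5.9 in OIS and 30.7 in RS, against 20.9 in growing cells, all below the floor. The other known inducers of ANGPTL4 were also described by their target lists. Of 22 measured hypoxia response genes 5 were higher in OIS than in growing cells (22.7%, against 4.92% of all measured genes) and none lower, their median log2 ratio being 0.65. Against growing cells, 2 were higher in RS (9.09%, against 3.72% of all) and none lower, with a median of 0.23. BHLHE40, a repressor of the clock, was 4.68-fold higher in OIS and 2.02-fold in RS, and HK2, which encodes hexokinase 2, 4.43-fold and 3.04-fold. The others past 2-fold in OIS were VEGFA at 3.20-fold and the glycolytic regulators PFKFB4 and PFKFB3 at 2.30-fold and 3.01-fold, and this pair was named after its values were seen, while ADM was 1.11-fold and SLC2A1 1.47-fold lower there.

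Of 12 measured glucocorticoid response genes 3 were higher (background 4.92%) and 1 lower (background 6.63%) in OIS than in growing cells. Against growing cells, 4 were higher in RS (33.3%, against 3.72%) and 1 lower (8.33%, against 5.58%). ERRFI1, an inhibitor of the EGF receptor, was 2.28-fold higher in OIS and 2.92-fold in RS, and SGK1, a serum and glucocorticoid regulated kinase named after its values were seen, 2.16-fold and 2.30-fold. KLF9 was 3.53-fold higher in OIS, and DUSP1, a MAP kinase phosphatase, 3.24-fold and TSC22D3 2.06-fold higher in RS. FKBP5, a widely used reporter of the glucocorticoid receptor, was 2.97-fold lower in OIS and 4.17-fold lower in RS than in growing cells. The medians were 0.20 in OIS and 0.16 in RS. Whether any of these lists and ANGPTL4 differ for a shared reason was not tested.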

How the data were processed

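The values deposited by the authors are MAS5 intensities on a linear scale, per the submitters' processing notes. Which MAS5 version and settings served is not given in the sources used here. This algorithm subtracts background and scales each array by 1 factor, which would remove a shift shared by all genes. Per the labels' protocols, biotin-labelled cRNA was prepared from 250 ng total RNA. No detection calls or scan dates were used here.

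Of 54613 probe sets 41091 name 1 gene in the platform annotation, 1801 name several and 11721 none, and only the first were used. The values carry no genome build. Signals below the pooled median (45.5) were set to it ahead of the log2 step, and the probe set with the highest mean stood for its gene. Of 19775 genes 13466 (68.1%) were measured, which means above the floor on at least 1 array. Genes named were the 9 themselves, the 2 highest and 2 lowest of each list, 5 checks of the labels and the 3 nearest in pattern to 4 genes, with others marked in the text. The genes and lists were chosen with earlier results of these data known. The steps were tested on simulated data. Python 3.11.15, numpy 2.4.6, pandas 2.3.3 and matplotlib 3.10.9 were used.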

Additional observations from a re-analysis of the deposited data

How the results depend on the processing

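No log2 ratio of the 8 measured genes that passed 2-fold changed sign under the 8 other settings of scaling, floor, filter and probe set that gave it a value. On a given probe set, another floor or none, no filter, or centring on the all-gene median of 0.00 could not have reversed a sign. Only quantile normalization, which gives all arrays the same distribution of signals, and the choices of probe set could have done so. For PPARG, which has a single probe set, only quantile normalization could have. With a floor at the 25th percentile (11.7) 2 genes were higher in OIS than in growing cells and 2 higher in OIS than in RS, the second being CEBPA, which is below the main floor. With cross-hybridizing probe sets left out, the counts were 0 for higher and 0 for lower in OIS against growing cells, 0 for higher in RS against growing cells and 0 for lower in OIS against RS, because ANGPTL4, PPARG and RXRA have no other probe set. With all probe sets the log2 ratio of ANGPTL4 was 2.55 in OIS and 2.37 in RS over growing cells, and that of CEBPD was -1.43 in RS over growing cells and 1.89 in OIS over RS. On the probe set of CEBPD that is not cross-hybridizing these were -1.03 and 1.41, with the RS signal at the floor. Over all genes, the lower floor gave 1543 higher and 1698 lower in OIS and 1317 higher and 1614 lower in RS against growing cells, and 1731 higher and 1579 lower in OIS against RS. At 3-fold the counts were 291 and 342, 147 and 317, and 305 and 252 in the same order, and the median of all probe sets gave 322 higher in RS. The median of the cytokine and acute phase list in OIS over growing cells ranged from 2.07 without a filter on low values to 3.86 with the floor at the 60th percentile. No paired analysis was possible because each condition has 1 array. Signals near the floor, such as PPARG in OIS, limit the folds given.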
